A study of Mus musculus with 56 samples.

Results

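p65 (RelA), a subunit of the transcription factor NF-kB, was mapped by ChIP-seq in mouse macrophages that were at rest, pretreated with IL-4, stimulated with LPS, or given both. The regions described here are those that carried a p65 peak in every one of these samples. Peaks of the 8 p65 samples that overlapped by 1 bp or more were merged into 51419 regions, and 3971 of them (7.72%) held a peak in all 8. They are called the shared regions below, and the remaining 47448 are the other p65 regions. Of those, 7693 had a peak in all 4 LPS samples and in none of the 4 samples without LPS. These LPS-only regions serve as a second set for comparison. The shared regions were chosen by their p65 peaks, so their p65 scores are described without a test, and tests are given only for antibodies that the choice did not use.

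In resting cells most NF-kB dimers are held in the cytoplasm by inhibitor proteins of the IkB family. LPS, the lipopolysaccharide of Gram-negative bacteria, acts through Toll-like receptor TLR4 to have these inhibitors degraded, and p65 dimers then enter the nucleus and bind GC-rich sites upstream of cytokine, chemokine and feedback inhibitor genes. Macrophages are known to keep a smaller amount of nuclear p65 without a stimulus. Much of the binding after LPS falls on enhancers that were already opened by PU.1, the ETS factor that specifies macrophages. IL-4 drives macrophages through the factor STAT6 towards alternative polarization, and IL-4-primed cells respond to LPS in an altered way.

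All cells were bone marrow-derived macrophages (BMDMs) of wild-type C57BL/6 mice aged 8 to 12 weeks, differentiated for 6 days in L929 supernatant as a source of M-CSF. For p65, for RNAPII-pS5 (RNA polymerase II phosphorylated on serine 5, typical of initiating and paused polymerase) and for RNAPII-pS2 (phosphorylated on serine 2, typical of elongation), there were 2 replicates each of 4 groups. These were ctrl/ctrl (no cytokine), IL-4 PT/ctrl (20 ng/ml IL-4 for 24 hr), ctrl/LPS (LPS for 1 hr, 100 ng/ml by the labels, while the study's methods give the unit as nM) and IL-4 PT/LPS (24 hr of IL-4 followed by 1 hr of LPS). A separate experiment compared untreated cells with cells given 20 ng/ml IL-4 for 1 hr, with 2 replicates per group and antibodies to H3K27Ac, PU.1, p300, HDAC1, HDAC2, HDAC3, RNAPII-pS5 and RNAPII-pS2. No p65 sample belonged to that experiment. No input library and no sample without p65 was analysed here, so nonspecific recovery was not measured. In ChIP on pooled cells, a larger share of cells bound and a higher occupancy per cell cannot be told apart.

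The number of p65 peaks per sample was 9706 and 9556 in ctrl/ctrl, 11026 and 10253 in IL-4 PT/ctrl, 26305 and 26820 in ctrl/LPS, and 36738 and 38955 in IL-4 PT/LPS. No read totals came with the peak lists. The number of p65 peaks followed the LPS treatment, so depth and binding cannot be told apart in it. Over all 56 samples and 9 antibodies, peaks ranged from 8440 to 71027. The p300 sample of untreated replicate 1 stood apart with 44787 peaks against 66710 to 69360 in the other 3 p300 samples. The 4 RNAPII-pS2 files of the 1 hr experiment held peak names with the opposite treatment to their labels, so these samples were used only for the presence of peaks, with this doubt, and in no comparison. The HDAC3 antibody carries the same catalogue number as the H3K27Ac antibody in the labels and in the study's ChIP-seq methods. Only the study's table of reagents lists another number for it, so the antibody used remains in doubt. The HDAC3 samples held 8440 to 13599 peaks and the H3K27Ac samples 26982 to 27797. Macrophage identity was checked by RNAPII-pS5 at the promoters of marker genes in the 2 ctrl/ctrl and 2 untreated samples. Of 6 macrophage markers, only Cd68 had a peak annotated to its promoter in at least 1 of these 4 samples, and 4 of 6 had a peak within 1000 bp of the start site. Adgre1 and Spi1 had none. Of the markers of T cells, B cells, fibroblasts and erythroid cells none had a promoter peak, and of 4 neutrophil markers S100a8 had one. The summed promoter scores ran from 0 to 27.7 for macrophage and from 0 to 11.2 for neutrophil markers, and the part of other cells in the results was not tested.

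The sequence under the p65 peak is shown for regions that carry the patterns described below. Each is given 5′ to 3′ on the plus strand of the mm10 genome around the centre of the region's highest-scoring p65 peak, and matches to a motif on either strand are in capitals. The first 4 are among the 10 regions with the highest p65 scores and hold the stricter NF-kB motif (GGGAA, any 3 bases, then CC), in capitals.
Sod2, chr17:13010152-13010351: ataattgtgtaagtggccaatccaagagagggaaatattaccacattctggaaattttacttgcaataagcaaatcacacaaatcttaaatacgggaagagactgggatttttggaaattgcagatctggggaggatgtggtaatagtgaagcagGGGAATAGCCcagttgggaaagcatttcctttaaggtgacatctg
Cxcl16, chr11:70467882-70468081: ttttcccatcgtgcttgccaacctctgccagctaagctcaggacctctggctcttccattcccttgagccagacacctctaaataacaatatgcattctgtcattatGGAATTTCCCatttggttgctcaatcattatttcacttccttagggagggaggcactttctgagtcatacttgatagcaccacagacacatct
Poc1b, chr10:99081726-99081925: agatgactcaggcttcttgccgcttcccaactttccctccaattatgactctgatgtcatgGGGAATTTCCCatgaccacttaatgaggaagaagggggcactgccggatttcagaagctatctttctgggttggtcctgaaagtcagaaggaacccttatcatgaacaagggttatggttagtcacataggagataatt
Ets2, chr16:95728869-95729068: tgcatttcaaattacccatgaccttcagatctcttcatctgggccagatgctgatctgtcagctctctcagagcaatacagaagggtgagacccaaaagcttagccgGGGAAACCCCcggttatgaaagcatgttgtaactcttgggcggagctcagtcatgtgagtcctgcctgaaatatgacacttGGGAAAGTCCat
The Sod2 and Cxcl16 windows held 1 match each. The Poc1b window held 2 matches that overlap on opposite strands, and the Ets2 window held 2 separate matches. The next pair belongs to the regions with the second highest (Papss1) and highest (Arid1b) mean log2 p65 score and holds no match to that motif. The Papss1 window does hold aggaatttcc, which differs from that motif in its first base only. The Arid1b window is shown over 60 bases only, since it is a simple repeat.
Papss1, chr3:131698281-131698480: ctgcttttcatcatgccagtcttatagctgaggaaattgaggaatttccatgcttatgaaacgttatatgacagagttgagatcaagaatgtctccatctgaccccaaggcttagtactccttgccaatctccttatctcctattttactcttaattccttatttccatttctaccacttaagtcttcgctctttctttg
Arid1b, chr17:4626352-4626411: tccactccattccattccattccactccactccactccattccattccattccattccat
The last window belongs to a region with one of the 5 largest positive p65 differences under LPS. The Jazf1 window has 4 matches to the AP-1 motif TGANTCA, in capitals.
Jazf1, chr6:52825602-52825801: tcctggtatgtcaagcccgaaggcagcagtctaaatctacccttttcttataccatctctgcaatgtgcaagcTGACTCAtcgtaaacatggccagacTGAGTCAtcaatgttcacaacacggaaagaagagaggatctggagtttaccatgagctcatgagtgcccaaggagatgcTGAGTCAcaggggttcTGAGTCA

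The p65 score of a region in a sample was the highest score of its peaks there, the −log10 of the peak caller's p- or q-value. Median scores of the shared regions were 12.3 and 12.6 in ctrl/ctrl, 11.3 and 10.5 in IL-4 PT/ctrl, 25.6 and 25.7 in ctrl/LPS, and 30.1 and 31.8 in IL-4 PT/LPS. The 4 LPS samples thus had higher medians than the 4 samples without LPS. In ctrl/ctrl replicate 1 single regions ran from 2.06 to 252, and 41.8% of all peaks of that sample lay in a shared region. Across the shared regions, log2 scores of the 2 replicates correlated with r = 0.845 in ctrl/ctrl, 0.795 in IL-4 PT/ctrl, 0.919 in ctrl/LPS and 0.924 in IL-4 PT/LPS (n = 3971 regions of the same libraries, given without a test). The median absolute log2 difference between replicates was 0.379, 0.407, 0.268 and 0.249 in the same order. A score also grows with sequencing depth, so most differences below were taken after subtracting the median log2 score of the shared regions in that sample, and the uncentred values stand beside them where the direction depends on this.

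**Figure D1:**
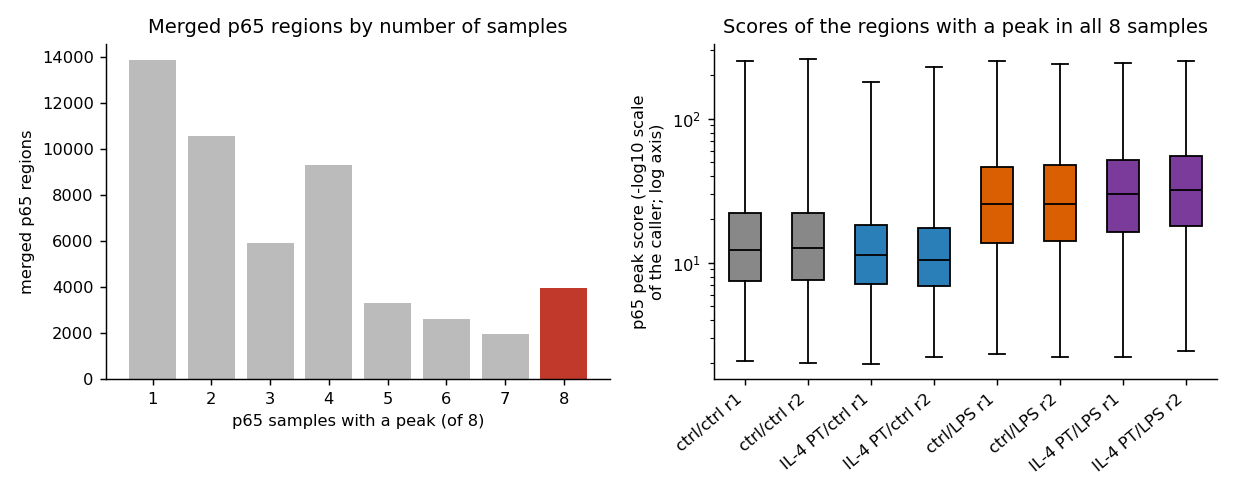
Left, number of merged p65 regions (linear axis) by the number of p65 samples with a peak, from 13855 regions with 1 sample to the 3971 shared regions with 8. Right, p65 score of the shared regions in each of the 8 samples on a log axis (box, quartiles; line, median; whiskers, lowest and highest region); medians sit between 10.5 and 12.6 without LPS and between 25.6 and 31.8 with LPS.

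The number of regions with a peak in 1 to 7 samples was 13855, 10557, 5897, 9300, 3291, 2598 and 1950. Of the 1950 regions that missed a single sample, 459 and 438 missed the ctrl/ctrl replicates, 383 and 463 the IL-4 PT/ctrl replicates, and 26 to 84 each of the LPS samples. The promoter of Cd14, the coreceptor for LPS, was just inside the rule. It scored 7.14 and 2.02 in ctrl/ctrl, 5.56 and 4.08 in IL-4 PT/ctrl, 41.7 and 41.3 in ctrl/LPS, and 49.1 and 37.9 in IL-4 PT/LPS. Its 4 values without LPS were all below its 4 values with LPS. An intron region of Hdac4, a class II histone deacetylase, entered with scores of 2.02 to 12.1, and the regions nearest Atp6v0a1, Stra8 and Ch25h with lowest scores of 1.99, 1.98 and 2.06. Just outside were regions of the NF-kB genes themselves. An intron region of Nfkb1 (precursor of the p50 subunit) scored 34.6 and 39.2 in ctrl/ctrl, 15.5 with no peak in replicate 2 in IL-4 PT/ctrl, 133 and 157 in ctrl/LPS, and 135 and 136 in IL-4 PT/LPS. An intron region of Rel (the c-Rel subunit) had no peak in ctrl/ctrl replicate 1 and scored 8.05 to 142 in the others. A missing peak in a sample with few peaks is thus enough to leave a strongly bound region out.

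The 10 regions with the highest mean log2 p65 score were a mixed group. At a simple repeat far upstream of Arid1b, a chromatin remodelling subunit, p65 scored 252 and 259.6 in ctrl/ctrl, 180.2 and 230.4 in IL-4 PT/ctrl, 144 and 161 in ctrl/LPS, and 210.2 and 236 in IL-4 PT/LPS (chr17:4626034-4626727, 368693 bp from the start site). The ctrl/ctrl values were the highest of the 4 groups. p300 differed between replicates there, with scores of 394 and 9.73 in untreated cells and of 14.6 and 24.4 after 1 hr of IL-4. Reads from several copies of a repeat can be placed at 1 of them, and the part of this in the scores was not tested. The intergenic region nearest Papss1, a sulphate donor synthase, scored 176 and 159, then 149 and 149.9, 186 and 183, and 187 and 197 in the same order of groups (chr3:131698008-131698708). It was among the most strongly bound regions in every sample and carried 7 of the 8 other antibodies in untreated cells.

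In intron 2 of Sod2, the mitochondrial superoxide dismutase and a textbook NF-kB target, p65 scored 145 and 128 in ctrl/ctrl, 92.0 and 88.6 in IL-4 PT/ctrl, 254 and 241 in ctrl/LPS, and 242 and 251 in IL-4 PT/LPS (chr17:13009953-13010559). All 4 LPS values exceeded the 4 values without LPS. Near Cxcl16, a chemokine of macrophages, the scores were 159 and 118, 160.1 and 148, 169 and 147, and 159 and 196 (chr11:70467646-70468261), and the groups overlapped. The promoter of Tnfaip3, which encodes the deubiquitinase A20 that ends NF-kB signalling, gave 149 and 139.7, 125 and 116, 138 and 129, and 144 and 143 (chr10:19015230-19015883). Its spread over the 8 samples was small, with the IL-4 PT/ctrl pair lowest. The regions nearest Poc1b (chr10:99081543-99082112), Pde4b (chr4:102623939-102624659) and Ets2 (chr16:95728666-95729326) scored 78.0 to 115 without LPS and 158 to 212 with LPS, with no overlap. The remaining 2 of the 10 were a region near Fpr2, a formyl peptide receptor (chr17:17900644-17901292), with 74 to 149.5 without and 192 to 222 with LPS, and a region near Pdgfrb, with 129 to 166 over all 8 samples.

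**Figure D2:**
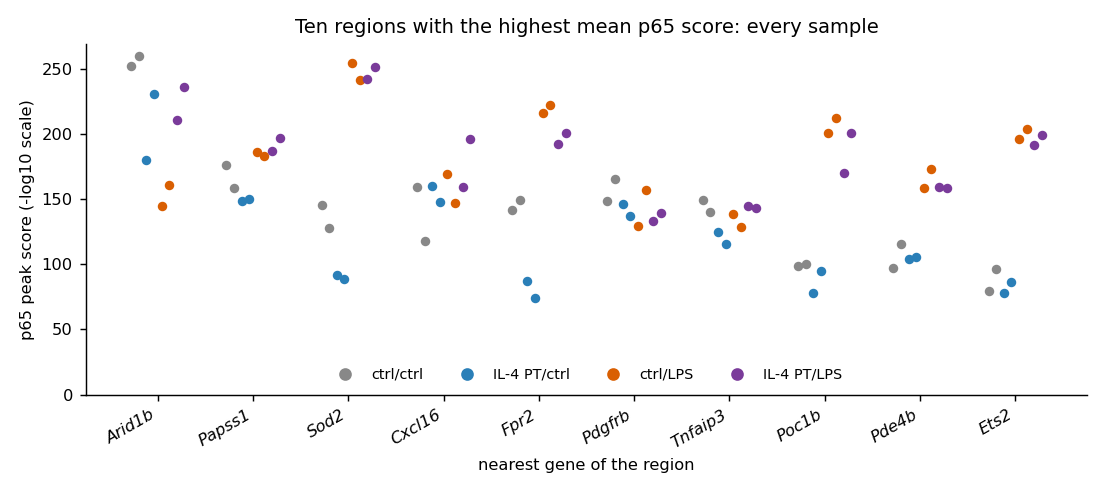
p65 score (linear axis) in each of the 8 samples at the 10 shared regions with the highest mean score, named by the nearest gene; each point is 1 sample and colour gives the group. At Sod2, Fpr2, Poc1b, Pde4b and Ets2 the LPS samples lie above the samples without LPS, while at Arid1b the ctrl/ctrl samples, at 252 and 259.6, are the highest.

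By the annotation in the peak lists, 457 shared regions (11.5%) were at promoters, 1556 (39.2%) in introns and 1814 (45.7%) intergenic. Promoter shares were 10.6% for the other p65 regions and 5.65% for the LPS-only regions. A start site lay within 1000 bp of 579 shared regions (14.6%), against 14.9% and 8.25%. The median distance to the nearest start site was 17456 bp for the shared and 18422 bp for the other regions. Simple repeats were annotated at 115 shared regions (2.9%), against 0.736% and 0.546%, and retroviral LTR elements at 4.96%, against 8.46% and 8.92%. Shared regions were wider, with a median of 596 bp (217 to 3851), than the other regions at 355 bp and the LPS-only regions at 463 bp. 313 of them held more than 1 peak in at least 1 sample. All of these shares describe regions, which are not replicates, and were not tested.

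The shared regions had 2893 nearest genes, 20.8% of the 13883 genes nearest to any p65 region. Of these, 704 had at least 2 shared regions, 231 at least 3 and 34 at least 5. Hivep2, whose zinc finger protein binds kB-like motifs, had the most with 9. Btg1, an antiproliferative gene, and Rasgef1b, an LPS-responsive exchange factor, had 8 each, Marcks 7, and Nfkbiz, which encodes the nuclear coactivator IkB-zeta, and the phosphatase gene Ptpn1 6 each.

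The NF-kB motif in its strict form (GGGAA, any 3 bases, then CC, on either strand) was present in the 200 bases around the peak centre of 851 shared regions (21.4%). It occurred in 10.1% of the other p65 regions, 12.5% of the LPS-only regions and 4.04% of RefSeq promoter windows of the same length (GRCm38.p6, the assembly of mm10). The looser form, GGG, any 5 bases and CC, which contains the strict one, was in 48.5%, 34.1%, 32.2% and 41.4% of the same sets. The PU.1 motif GAGGAAGT was in 12.3% of shared, 7.44% of other and 6.68% of LPS-only regions. The AP-1 motif TGANTCA went the other way, with 618 shared regions (15.6%) against 22.6% and 35.9%. C/EBP (TTNCNNAA) and STAT6 (TTC, any 4 bases, then GAA) motifs occurred at 53.3% and 7.68% of shared regions, against 48.2% and 8.33% of the others. In windows of 100 bases the strict NF-kB motif was in 13.8%, 6.33% and 8.2% of shared, other and LPS-only regions, in the same order of sets as before. Median GC content was 48%, 47% and 45%.

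The strict motif went with the p65 score within the shared regions. In 4 equal groups of regions by mean score, from the lowest to the highest, it was in 14.4%, 17.3%, 22.2% and 31.8%. Promoter annotation was most frequent in the lowest group, at 15.6%, and was 9.97% in the highest. H3K27Ac was present in both untreated samples at 72.1% of the lowest and 60.8% of the highest group, while the share with PU.1 lay between 79.1% and 82.1%. Because p65 chose and ordered these regions, the 4 groups are a description.

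In untreated cells most shared regions were occupied by the other factors as well. A peak in both untreated samples was found at 3721 shared regions (93.7%) for p300, the acetyltransferase of active enhancers, and at 3188 (80.3%) for PU.1. The corresponding shares were 53.8% and 37.7% for the other p65 regions, and 55.5% and 38.05% for the LPS-only regions. H3K27Ac, the acetylation mark of active promoters and enhancers, was at 2618 shared regions (65.9%), against 36.0% and 29.6%. The histone deacetylases HDAC1, HDAC2 and HDAC3, which remove such acetyl groups within corepressor complexes, were at 75.5%, 71.1% and 56.5% of shared regions. Among the LPS-only regions they were at 18.3%, 16.6% and 6.63%. RNAPII-pS5 was at 3108 shared regions (78.3%), against 32.9% and 22.2%, and RNAPII-pS2 at 33.6%, against 10.8% and 5.61%. For HDAC3 the share among the other p65 regions was 9.37%.

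Wider regions meet a peak more easily, so the shares were also counted in the 200 bases at the region's centre, for all regions alike. They were then 93% for p300, 77.4% for PU.1, 60.8% for H3K27Ac, 72.1% for HDAC1, 68.5% for HDAC2, 54.0% for HDAC3, 76.1% for RNAPII-pS5 and 31.4% for RNAPII-pS2 at the shared regions. At the other p65 regions they were 52.9%, 36.2%, 34.6%, 26.1%, 20.6%, 9.04%, 32.0% and 9.93%, below the shared regions for each antibody. In all, 657 shared regions had all 8 antibodies in both untreated samples, 338 had a peak in every sample of every antibody, and 92 had none of the 8 in both untreated samples. Where a peak was present it also scored higher. The median PU.1 score in untreated replicate 1 was 39.0 at shared and 16.8 at other regions, that of p300 in untreated replicate 2 was 117 and 33.8, and that of HDAC3 14.1 and 8.22. Across the shared regions, the scores of these antibodies had correlations with the ctrl/ctrl p65 score between −0.0219 for PU.1 and 0.138 for HDAC3, given as a description.

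**Figure D3:**
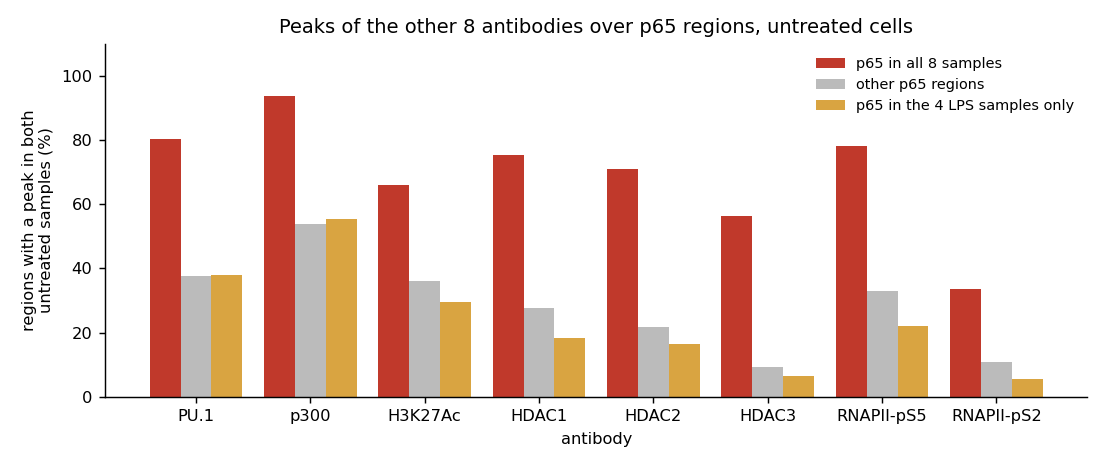
Percent of regions (axis from 0) with a peak of each antibody in both untreated samples, for the shared, the other and the LPS-only p65 regions. The shared regions are highest for each of the 8 antibodies, from 33.6% for RNAPII-pS2 to 93.7% for p300.

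Between ctrl/ctrl and ctrl/LPS the p65 score of the shared regions was higher by a median of 0.91 on the uncentred log2 scale, and between IL-4 PT/ctrl and IL-4 PT/LPS it was higher by 1.35. Both ctrl/LPS values exceeded both ctrl/ctrl values at 2628 regions and were below them at 430. Over all p65 regions with a peak in at least 2 samples these shares were 48.8% and 3.25%. There a missing peak was set to the lowest p65 score. A region without a peak in either group therefore ties and cannot count, and one missing from 1 group only is kept apart. Shared regions have a value in all 8 samples by the rule. Their shares and those of all p65 regions are thus not like for like, here and below. After centring, 1275 shared regions were higher and 1606 lower without overlap, against 40.9% and 8.11% of all regions on the same centring. By percentile of the score within its sample, 2030 were higher and 899 lower. After IL-4 PT, the LPS samples were higher at 3188 and lower at 171 shared regions, beside 75.1% and 1.74% of all p65 regions, and after centring at 1177 and 1622, beside 61.4% and 8.16%. Whether more shared regions were higher or lower in p65 under LPS thus depended on the scaling, and only the order of the regions among themselves is read below.

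Relative to the median shared region, 596 (15.0%) were higher by at least 1 log2 unit under LPS without overlap of the replicates, 875 (22.0%) were lower by as much, and 2500 lay between. Over all p65 regions these shares were 37.6% and 5.51%. After IL-4 PT, 534 shared regions were higher and 831 lower by as much, against 55.1% and 5.13%. The first group had a median score of 7.95 in ctrl/ctrl and 48.8 in ctrl/LPS, and the second of 18.4 and 12.6. The largest positive difference was at a region 2818 bp from the start of Olfr432, with scores of 4.74 and 7.45 in ctrl/ctrl, 9.7 and 9.2 in IL-4 PT/ctrl, 156 and 165 in ctrl/LPS, and 175 and 184 in IL-4 PT/LPS (centred log2 difference 3.71). In an intron of Jazf1, a zinc finger gene, scores were 3.08 and 9.68, 14.9 and 12.9, 105 and 104, and 101 and 102. Both regions were bound weakly but in every sample without LPS. The intron region of Sbds, a ribosome maturation factor, carried none of the 8 other antibodies in both untreated samples and went from 5.97 and 4.49 in ctrl/ctrl to 112 and 116 in ctrl/LPS. Ccdc71l and BC039771 were the nearest genes of the other 2 of the 5 largest positive differences.

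Among the 5 largest negative differences, a region near Cd81, a tetraspanin, scored 33.6 and 21.9 in ctrl/ctrl and 4.03 and 6.96 in ctrl/LPS, and one near Lrch3 15.3 and 23.1 against 3.64 and 3.77. A further pair lay near March1 and Mir1907, the first at a simple repeat.

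The 3 groups of regions had different sequences and other antibodies. The AP-1 motif was in 31.5% of the regions that were higher under LPS, 15.5% of those between and 4.91% of those that were lower. The strict NF-kB motif showed the opposite order, with 14.8%, 21.6% and 25.6%. PU.1 in both untreated samples was at 83.0%, 85.5% and 63.4%, p300 at 96.8%, 96.6% and 83.3%, and HDAC3 at 58.2%, 60.5% and 43.9%. Promoters made up 5.54%, 11.4% and 16%, and simple repeats 0.839%, 1.28% and 8.91%. The groups also differed in median width, with 631, 603 and 545 bp, and in median GC content, with 46%, 48% and 50%, and the part of these in the other differences was not tested.

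**Figure D4:**
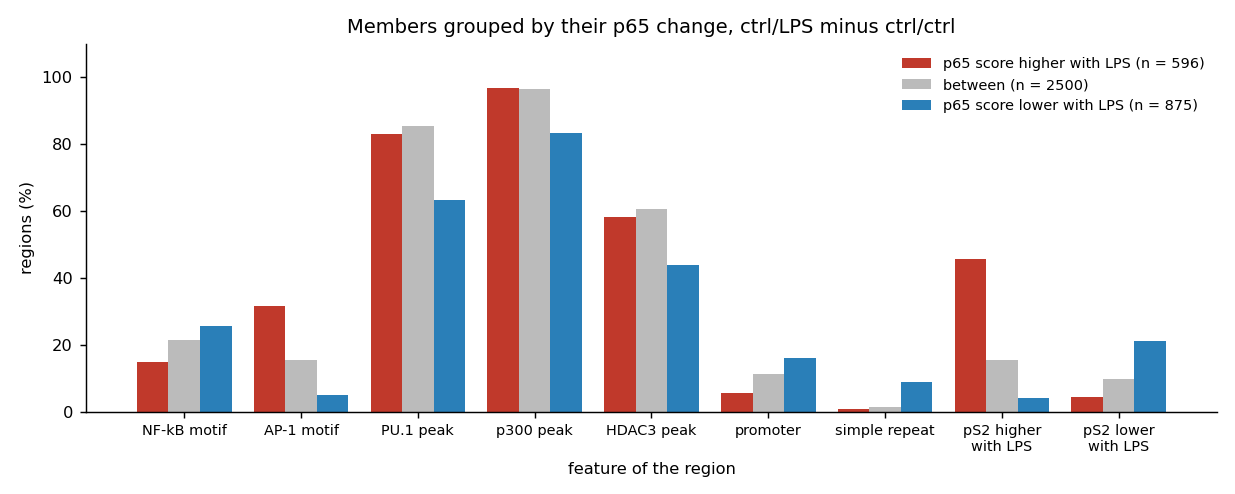
Percent of shared regions (axis from 0) that hold a motif, a peak of another antibody in both untreated samples, a promoter or repeat annotation, or an RNAPII call, in the 3 groups by p65 change under LPS (596 higher, 2500 between, 875 lower); RNAPII percents are of the regions tested. AP-1 is at 31.5% in the first and 4.91% in the last group, the strict NF-kB motif at 14.8% and 25.6%.

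With IL-4 pretreatment alone the p65 differences were smaller. The median uncentred difference between IL-4 PT/ctrl and ctrl/ctrl was −0.21, with 684 shared regions higher and 1406 lower without overlap (7.28% and 8.26% of all p65 regions). After centring, 989 shared regions were higher and 998 lower, against 8.52% and 6.74% of all regions. Ties of missing peaks lower the shares of all regions, so the larger shares at the shared regions are not read as a difference. Differences of 1 log2 unit or more were found at 307 and 272 regions, against 6.55% and 4.65% of all p65 regions. The ctrl/ctrl samples enter this difference and the LPS difference alike.

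Under LPS, IL-4 PT/LPS was above ctrl/LPS by a median of 0.20 uncentred. 1639 shared regions were higher and 631 lower, against 50.2% and 11.6% of all p65 regions. After centring the split was 984 higher and 1320 lower, against 42.2% and 17.7%, and by percentile 1488 and 746, so this direction, too, depended on the scaling. At least 1 log2 unit was reached by 213 regions upward and 142 downward, against 29.5% and 7.79% of all p65 regions. Missing peaks shift the shares of all p65 regions in this comparison too. The region near Agps, an enzyme of ether lipid synthesis, had the largest positive difference. It scored 16.0 and 11.4 in ctrl/ctrl, 32.0 and 39.7 in IL-4 PT/ctrl, 10.6 and 3.15 in ctrl/LPS, and 37.5 and 43.5 in IL-4 PT/LPS (centred log2 difference 2.54). Both IL-4 PT groups were above both groups without IL-4. The same order of groups held near Plekhg1, with 6.98 and 8.27 in ctrl/ctrl, 9.79 and 15.8 in IL-4 PT/ctrl, 5.7 and 7.86 in ctrl/LPS, and 47.0 and 43.9 in IL-4 PT/LPS. There, H3K27Ac in the 1 hr experiment rose from 90.6 and 83.1 to 235 and 227 (log2 1.46, SE 0.063, limma adjusted p = 0.000926). Near Eea1, an early endosome tether, p65 scored 12.3 and 11.0 in ctrl/LPS and 62.6 and 97.6 in IL-4 PT/LPS.

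In the other direction, an intron region of Limd2 had the largest difference, with 43.6 and 63.1 in ctrl/ctrl, 12.2 and 21.6 in IL-4 PT/ctrl, 58.1 and 57.5 in ctrl/LPS, and 13.2 and 21.1 in IL-4 PT/LPS (centred log2 difference −2.06). IL-4 PT gave lower scores here both without and with LPS. Near Tlk1, a kinase of chromatin assembly, p65 scored 25.8 and 39.3, 7.99 and 7.25, 80.1 and 72.0, and 25.03 and 23.9. RNAPII-pS2 was lower in IL-4 PT/LPS too, with scores of 34.5 and 28.8 in ctrl/LPS and no peak in either IL-4 PT/LPS sample (limma adjusted p = 0.000757). Fcgr3, an Fc receptor of macrophages, 1700019E08Rik and Gm8884 were the nearest genes of the other 3.

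RNAPII-pS5 was tested with limma at 21162 p65 regions that had a peak in at least 2 of 8 samples, 3345 of them shared. A missing peak was set to the lowest score of the antibody's files, so a log2 change of a single region is given below only where every sample had a peak. Medians and correlations over the regions tested include such set values unless a peak in every sample is stated. Between ctrl/ctrl and ctrl/LPS, RNAPII-pS5 rose at 478 shared regions (14.3% of those tested) and fell at 388 (11.6%), next to 13.4% and 16% of all p65 regions. Without either ctrl/ctrl replicate 245 fell. Among the 1410 shared regions with a peak in every sample, 189 rose and 80 fell. Counts with a peak in every sample are given here and below for shared regions alone, without a background. RNAPII-pS2 was tested at 3681 shared regions. It rose at 671 (18.2%) and fell at 403 (10.9%), next to 21.7% and 11.4% of all p65 regions. Without ctrl/LPS replicate 1 or 2 it rose at 407 or 430, and without ctrl/ctrl replicate 1 or 2 it fell at 212 or 201. Among the 2355 with a peak in every sample 371 rose and 255 fell. The shares of rising regions were near the background for both antibodies.

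RNAPII-pS5 gains under LPS included 4 chemokine promoters. The Cxcl10 promoter, of an interferon- and NF-kB-driven T cell attractant, had no peak in the 4 samples without LPS, 83.7 and 79.0 in ctrl/LPS, and 57.2 and 51.8 in IL-4 PT/LPS (chr5:92348800-92349276, limma adjusted p = 0.000909 for ctrl/LPS against ctrl/ctrl). p65 had been there without LPS, at 51.6 and 62.4 in ctrl/ctrl, and scored 70.6 and 63.6 in ctrl/LPS. At the promoter of Cxcl2, a neutrophil attractant, RNAPII-pS5 again had no peak without LPS and scored 66.5 and 67.7 in ctrl/LPS and 72.5 and 69.5 in IL-4 PT/LPS (chr5:90903003-90903995, limma adjusted p = 0.000909). RNAPII-pS2 there went from no peak to 54.2 and 45.5 in ctrl/LPS (limma adjusted p = 0.000385).

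The Ccl3 promoter had a peak throughout, with RNAPII-pS5 at 28.7 and 26.2 in ctrl/ctrl, 12.6 and 10.4 in IL-4 PT/ctrl, 103 and 105 in ctrl/LPS, and 92.8 and 91.4 in IL-4 PT/LPS (chr11:83649204-83650084). The LPS change was 2.10 on the log2 scale (SE 0.12, limma adjusted p = 0.000976). The Ccl2 promoter, of the main monocyte attractant, went from 15.7 and 14.1 to 60.4 and 63.0 (chr11:82035084-82035585, log2 2.23, SE 0.21, limma adjusted p = 0.00126). The promoter of Il15, a cytokine for T and NK cells, rose by 1.29 (SE 0.27, limma adjusted p = 0.0179), a call that was lost without ctrl/ctrl replicate 1 or either ctrl/LPS replicate (limma adjusted p = 0.0603 to 0.0833). At the intergenic region 10282 bp upstream of Il1a, RNAPII-pS5 rose by 1.57 (SE 0.21, limma adjusted p = 0.00331) and RNAPII-pS2 by 1.10 (SE 0.093, limma adjusted p = 0.00064).

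RNAPII changes at single regions of other genes differed in direction. At 5271 bp from Dusp1, a MAP kinase phosphatase, RNAPII-pS5 had no peak without LPS and scored 40.7 and 40.4 in ctrl/LPS (chr17:26502841-26503526, limma adjusted p = 0.000976), although p65 there scored 18.6 and 23.0 in ctrl/ctrl and 12.9 and 10.8 in ctrl/LPS. At a second Dusp1 region, 10895 bp from the start, RNAPII-pS5 instead fell from 20.6 and 20.1 to 5.99 and 4.06 (log2 −1.86, SE 0.44, limma adjusted p = 0.0258). That call was lost without any 1 ctrl/ctrl, ctrl/LPS or IL-4 PT/LPS replicate (limma adjusted p = 0.0551 to 0.12) and with a floor 4 times as high (0.0514). The region 853 bp downstream of the start of Nfkbia, the gene of the inhibitor IkB-alpha, went from no peak to 47.9 and 46.9 (chr12:55491576-55492026, limma adjusted p = 0.000976). Taking the highest peak within 1000 bp, the samples without LPS scored 11.4 to 22.8 and the change was 1.98 (limma adjusted p = 0.0047). In Sod2, RNAPII-pS2 went from 4.91 and 5.05 in ctrl/ctrl to 33.2 and 34.4 in ctrl/LPS (log2 2.57, SE 0.20, limma adjusted p = 0.000512). Near Poc1b it rose by 1.13 (SE 0.14, limma adjusted p = 0.00238).

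RNAPII-pS5 losses under LPS included a CpG-rich region near Batf, an AP-1 family gene, with 52.9 and 63.5 in ctrl/ctrl and no peak in ctrl/LPS (chr12:85698089-85698698, limma adjusted p = 0.000976). p65 remained at this region in all 8 samples by the rule. Distal regions of Jun (log2 −1.90, SE 0.38, limma adjusted p = 0.0146) and Klf6 (−1.33, SE 0.29, limma adjusted p = 0.0201) fell too, but both calls were lost without any 1 of the ctrl/ctrl and ctrl/LPS replicates (limma adjusted p = 0.0545 to 0.111). An intron region of Nav2 had 32.5 and 25.8 in ctrl/ctrl and no peak under LPS. At Gadd45b, a stress-inducible gene, the promoter peak of 79.6 and 72.1 was absent under LPS, but peaks within 1000 bp scored 37.7 and 85.9 in ctrl/LPS and the call was lost (log2 −0.23, limma adjusted p = 0.669). The loss 20921 bp from Ly6e was lost in the same way (−0.52, limma adjusted p = 0.146). Near Il1b, 2333 bp from its start, RNAPII-pS2 scored 31.9 and 21.7 in ctrl/ctrl, 51.7 and 59.9 in IL-4 PT/ctrl, and had no peak in any LPS sample (limma adjusted p = 0.000419). These values are for this region alone, and the study describes LPS-induced RNAPII-pS2 over the body of Il1b.

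RNAPII calls differed with the p65 change of the region. Among regions where p65 was higher by at least 1 log2 unit under LPS, RNAPII-pS5 rose at 162 of 547 tested (29.6%) and fell at 19. Among those where p65 was lower it rose at 46 of 600 (7.67%) and fell at 153 (25.5%). Over all p65 regions tested RNAPII-pS5 rose at 13.4% and fell at 16%. The median RNAPII-pS5 changes were 0.89, 0 and −0.79 for the regions higher, between and lower in p65, with missing peaks at the lowest score. RNAPII-pS2 rose at 268 of 585 (45.8%), 374 of 2402 (15.6%) and 29 of 694 (4.18%) of these groups, next to 21.7% of all p65 regions tested. The groups were cut from p65 scores of the samples that the rule used. The correlation of the p65 and RNAPII-pS5 changes was 0.411 over 3345 regions and 0.319 over the 1410 with a peak in every sample, and with RNAPII-pS2 it was 0.448 over 3681. These correlations are across regions, which share their libraries and depth, and are given without a test.

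**Figure D5:**
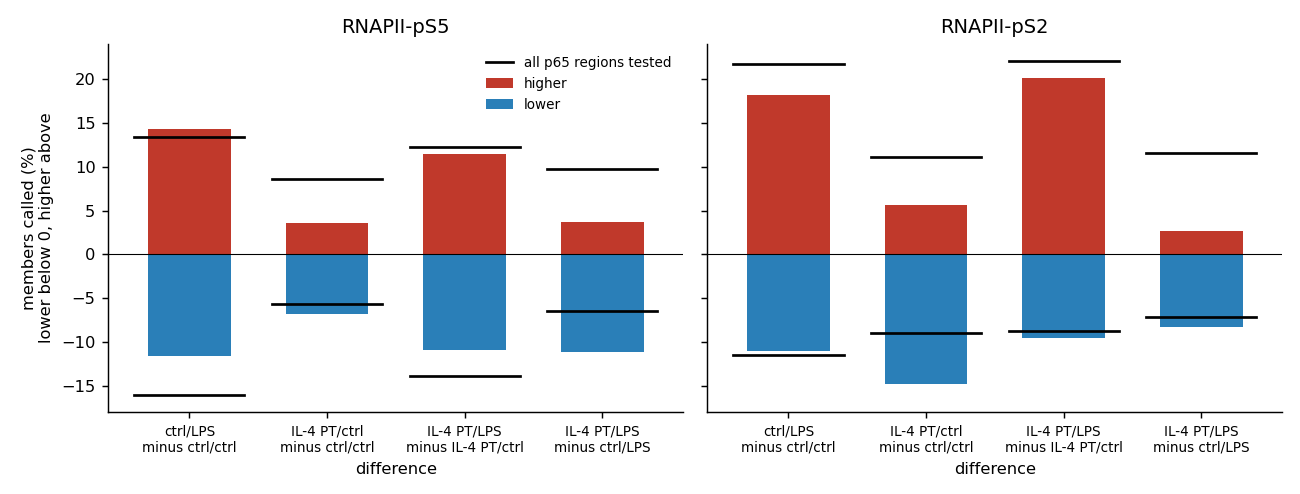
Percent of shared regions tested (axis from 0) at which RNAPII-pS5 or RNAPII-pS2 was called higher or lower by limma (adjusted p of at most 0.05) in each contrast; black lines give the same percent over all p65 regions tested. For IL-4 PT/LPS against ctrl/LPS the shared regions have 3.71% higher and 11.1% lower in RNAPII-pS5, with lines at 9.79% and 6.4%.

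With IL-4 pretreatment alone, RNAPII-pS5 rose at 120 shared regions (3.59%) and fell at 228 (6.82%), next to 8.63% and 5.68% of all p65 regions. RNAPII-pS2 rose at 208 (5.65%) and fell at 542 (14.7%), next to 11.1% and 8.91%. Without IL-4 PT/ctrl replicate 1 or 2 it rose at 134 or 133, and without ctrl/ctrl replicate 1 or 2 it fell at 334 or 326. With a peak in every sample the counts were 47 and 61 for RNAPII-pS5, and 162 and 265 for RNAPII-pS2. Near Batf3, an AP-1 family factor of dendritic cells, RNAPII-pS5 scored 10.8 with no peak in replicate 2 in ctrl/ctrl and 71.0 and 56.9 in IL-4 PT/ctrl (limma adjusted p = 0.0389). This call was lost without any 1 IL-4 PT/ctrl, ctrl/LPS or IL-4 PT/LPS replicate (limma adjusted p = 0.0939 to 0.188). At the Ccl3 promoter it fell (log2 −1.28, SE 0.12, limma adjusted p = 0.00206). Near Egr3, an early growth response factor, it went from 77.7 and 85.7 to 32.5 and 29.0 (chr14:70065837-70066496, log2 −1.43, SE 0.19, limma adjusted p = 0.00542).

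LPS after IL-4 pretreatment gave RNAPII-pS5 gains at 385 (11.5%) and losses at 363 (10.8%) shared regions, next to 12.3% and 13.9%. For RNAPII-pS2 these were 740 (20.1%) and 351 (9.54%), next to 22.1% and 8.71%. Without IL-4 PT/LPS replicate 1 or 2 the RNAPII-pS2 gains were 462 or 467, and without IL-4 PT/ctrl replicate 2 its losses were 221. The RNAPII-pS5 losses were 240 without IL-4 PT/ctrl replicate 1. Comparing the LPS samples directly, IL-4 PT/LPS was above ctrl/LPS at 124 (3.71%) and below it at 371 (11.1%) shared regions in RNAPII-pS5, next to 9.79% and 6.4% of all p65 regions. Without ctrl/LPS replicate 1 or 2 the lower count was 235 or 216, beside 129 or 151 higher. In RNAPII-pS2 it was above at 99 (2.69%) and below at 304 (8.26%), next to 11.6% and 7.12%. There, 200 or 188 were lower without ctrl/LPS replicate 1 or 2, and 65 higher without IL-4 PT/LPS replicate 1. Among shared regions with a peak in every sample, 35 were higher and 203 lower in RNAPII-pS5, and 58 and 186 in RNAPII-pS2. The split of all p65 regions with a peak in every sample was not counted. At the shared regions lower calls outnumbered higher ones for both antibodies, while over all p65 regions higher calls outnumbered lower ones. All p65 regions include those that had a p65 peak in some samples only, and IL-4 PT/LPS had the most p65 peaks. These sets are thus not like for like, here and in the other RNAPII comparisons. The part of this in the different balance was not tested.

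The difference between the LPS responses with and without IL-4 PT was tested as well. In RNAPII-pS5 it was larger after IL-4 PT at 162 and smaller at 174 shared regions, next to 8.54% and 7.76% of all p65 regions, and in RNAPII-pS2 at 221 and 147, next to 9.99% and 7.94%.

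The Egr3 region was a clear case with peaks in all samples. RNAPII-pS5 scored 54.1 and 55.5 in ctrl/LPS and 11.5 and 15.9 in IL-4 PT/LPS (log2 −2.21, SE 0.19, limma adjusted p = 0.00146). RNAPII-pS2 scored 128 and 105 against 47.1 and 46.1 (−1.26, SE 0.12, limma adjusted p = 0.00126). p65 there scored 37.6 and 46.3 against 26.9 and 29.4, a difference in the same direction. A second Egr3 region, 20170 bp from the start, fell in RNAPII-pS5 as well (−1.59, SE 0.14, limma adjusted p = 0.00161).

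At the distal region of Il6, the gene of the acute-phase cytokine, RNAPII-pS5 scored 50.9 and 34.5 in ctrl/ctrl, 21.7 and 26.9 in IL-4 PT/ctrl, 29.7 and 39.4 in ctrl/LPS, and 18.1 and 14.0 in IL-4 PT/LPS (chr5:29948109-29948694, −1.29, SE 0.24, limma adjusted p = 0.0197 for IL-4 PT/LPS against ctrl/LPS). p65 scored 128 and 135 against 116 and 126 in the same samples, lower without overlap by a small margin. Without any 1 of these 4 replicates the RNAPII-pS5 call was lost (limma adjusted p = 0.0545 to 0.105). Near Itgam, the integrin CD11b, RNAPII-pS2 fell from 71.8 and 54.0 to 18.4 and 16.8 (−1.77, SE 0.18, limma adjusted p = 0.00134), and p65 scored 94.2 and 104 in ctrl/LPS and 54.2 and 42.8 in IL-4 PT/LPS. Both antibodies were thus lower. At 9607 bp from Il1b RNAPII-pS2 fell by 1.32 (SE 0.29, limma adjusted p = 0.0294), with p65 at 127 and 113 against 60.7 and 50.6. That RNAPII-pS2 call was lost without either ctrl/ctrl replicate, ctrl/LPS replicate 1 or IL-4 PT/LPS replicate 2 (limma adjusted p = 0.0573 to 0.111). At Sod2 RNAPII-pS2 was 16.3 and 17.5 in IL-4 PT/LPS (−0.94, SE 0.20, limma adjusted p = 0.0243), while p65 was 242 and 251 against 254 and 241, which overlapped. Without ctrl/LPS replicate 2 the limma adjusted p of the RNAPII-pS2 change was 0.0599, and with only regions that had a peak in every sample it was 0.115. Near Clec4g, a lectin gene, the RNAPII-pS5 peak of 35.5 and 26.6 in ctrl/LPS was absent from both IL-4 PT/LPS samples (limma adjusted p = 0.00141). Gains were fewer, and those at Birc3 and at the Rel promoter were lost when peaks within 1000 bp were taken (limma adjusted p = 0.927 for RNAPII-pS5 and 0.415 for RNAPII-pS2).

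In the 1 hr experiment, the H3K27Ac score is a normalized tag count in regions of fixed width rather than a −log10 value. H3K27Ac rose at 630 (22.8%) and fell at 957 (34.6%) of 2766 shared regions tested, next to 21.2% and 25.6% of all p65 regions. With a peak in all 4 samples the counts were 552 and 884 of 2475. Leaving out any 1 library left 311 to 363 higher and 319 to 463 lower, and without untreated replicate 1 or 2 the split was 363 higher and 319 lower or 347 higher and 344 lower, so losses no longer exceeded gains. At the Ier3 promoter, of an early response gene, it went from 177 and 186 to 574 and 557 (log2 1.69, SE 0.047, limma adjusted p = 0.000319). Near Pde4b, a phosphodiesterase, it rose by 1.04 (SE 0.043, limma adjusted p = 0.000817). Near Fpr2 it fell from 126 and 126 to 35.4 and 35.1 (−1.79, SE 0.061, limma adjusted p = 0.000539). The largest changes were peaks absent from 1 group, gained at Csf1r and the Slfn2 promoter and lost near Zeb2, Capza2 and F830045P16Rik. Such a change can arise where a fixed-width peak was placed elsewhere. Near Zfp395, for example, the gain to 808 and 840.4 was lost when peaks within 1000 bp were taken (log2 −0.09, limma adjusted p = 0.119).

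p300 rose at 242 (6.24%) and fell at 96 (2.48%) of 3878 shared regions, next to 8.82% and 3.42% of all p65 regions. Without the untreated replicate 1 that stood apart, 467 rose and 62 fell, and without the other untreated replicate 536 rose and 1047 fell, so these counts rest on single libraries. Without either of the IL-4 replicates no region was called. At an intron region 90297 bp from Socs1, its nearest start site, p300 went from 9.27 and 26.0 to 276 and 265 (log2 3.45, SE 0.14, limma adjusted p = 0.00453). It rose at the promoter of Ilk, the integrin-linked kinase, from no peak and 11.3 to 100.4 and 110.1. For PU.1, limma called 0 of 3397 shared regions and 0% of all p65 regions, with 186 higher and 106 lower at an unadjusted p of at most 0.05, next to 8.02% and 3.53% of all p65 regions. For RNAPII-pS5 it called 0 of 3321 and 0%, with 251 higher and 354 lower unadjusted, next to 9.95% and 11%. In simulated data the PU.1 fit called 14% of changes of 2 log2 units and 58% of changes of 4. The RNAPII-pS5 fit called 32% and 64% of them, so the absence of a call does not show an unchanged region. HDAC presence is given only as shares. HDAC1 was at 83.8% and 78.9% of shared regions in the 2 untreated samples and at 75.2% and 73.6% in the 2 samples after 1 hr of IL-4. At the other p65 regions these shares were 36.4% and 31.9%, then 28.7% and 26.98%. HDAC2 was at 79.9% and 75.3%, then 82.1% and 73.9%, and at the other regions at 29.9% and 26.9%, then 34.1% and 25.04%. HDAC3 was at 68.6% and 59.0%, then 70.3% and 66.6%, and at the other regions at 16.3% and 11.0%, then 18.4% and 16.2%. The shares of HDAC2 and HDAC3 at the shared regions overlapped between the groups.

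Among the gene lists, the NF-kB subunits and feedback inhibitors had many shared regions. Of 18 genes, all nearest to some p65 region, 14 were nearest to a shared region, with 34 shared regions in all. Over all genes that share was 20.8%. A gene with more p65 regions has a shared one more easily, and the number of p65 regions per gene was not taken into account, here or for the lists below. Each of the other lists was also above 20.8%. The strict NF-kB motif was in 47.1% of these regions, against 21.4% of all shared regions. Their centred median p65 difference under LPS was −0.72, beside −0.13 for all shared regions, and uncentred it was 0.32, beside 0.91, so that its sign depended on the scaling but both put it below all shared regions. After centring there was 1 region at least 1 log2 unit higher and 11 lower. RNAPII-pS5 rose at 9 and fell at 6 of 28 tested, next to 13.4% and 16% of all p65 regions tested. RNAPII-pS2 rose at 4 and fell at 9 of 31, next to 21.7% and 11.4%. The promoter of Nfkbib, of the inhibitor IkB-beta, scored 119 and 86.8 for p65 in ctrl/ctrl, 88.6 and 97.8 in IL-4 PT/ctrl, 51.7 and 66.5 in ctrl/LPS, and 53.4 and 63.0 in IL-4 PT/LPS, so that all LPS values were lower. The promoter of Cyld, a deubiquitinase that restrains NF-kB, had 33.6 and 27.9 against 8.2 and 12.9 in ctrl/LPS. The exonic region of Tnip1, a partner of A20, had 47.0 and 40.4 against 15.7 and 9.93. The Rel promoter was the exception, with 8.69 and 9.86 in ctrl/ctrl and 68.5 and 69.5 in ctrl/LPS, and RNAPII-pS5 rose there (log2 1.34, SE 0.26, limma adjusted p = 0.0138). Without ctrl/ctrl replicate 2 or ctrl/LPS replicate 1 that p was 0.0717 or 0.0584 by limma. The Nfkbia promoter was bound throughout, at 58.1 and 61.2, 41.4 and 58.2, 65.6 and 89.8, and 124 and 112 (chr12:55492495-55493145). After 1 hr of IL-4, H3K27Ac rose at 2 and fell at 12 of 24 tested, next to 21.2% and 25.6% of all p65 regions. The 12 falls in H3K27Ac included all 6 regions of Nfkbiz and 3 of Bcl3. At the Nfkbiz promoter at chr16:55822037-55822800 it went from 199 and 222 to 118 and 112 (−0.82, SE 0.080, limma adjusted p = 0.0053, and 0.0501 to 0.0692 without untreated replicate 2 or either 1 hr IL-4 replicate), while at the Rel promoter it rose (0.74, SE 0.040, limma adjusted p = 0.00148).

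Of 29 cytokine and chemokine genes, 17 were nearest to a shared region (58.6%, beside 20.8% over all genes), with 31 regions. Their centred median p65 difference under LPS was 0.58 (1.62 uncentred), above that of all shared regions, with 7 regions at least 1 log2 unit higher and 0 lower. RNAPII-pS5 rose at 10 and fell at 1 of 29, next to 13.4% and 16% of all p65 regions tested. RNAPII-pS2 rose at 9 and fell at 5 of 30, next to 21.7% and 11.4%. Between IL-4 PT/LPS and ctrl/LPS, RNAPII-pS2 rose at 0 and fell at 5, next to 11.6% and 7.12%. The region 27113 bp upstream of Il12b, the p40 subunit gene of IL-12 and IL-23, scored 5.14 and 5.38 in ctrl/ctrl, 3.2 and 4.65 in IL-4 PT/ctrl, 59.2 and 56.0 in ctrl/LPS, and 72.9 and 83.0 in IL-4 PT/LPS for p65. It was weak but present in every sample without LPS. Near Ccl2, at 12799 bp, p65 scored 9.45 and 12.1 in ctrl/ctrl and 93.5 and 92.3 in ctrl/LPS. RNAPII-pS2 there was 102 and 105 in ctrl/LPS and 54.95 and 63.0 in IL-4 PT/LPS (−0.76, SE 0.17, limma adjusted p = 0.0316), while p65 was 115 and 128 in IL-4 PT/LPS, above ctrl/LPS. The RNAPII-pS2 call was lost without any 1 ctrl/ctrl, ctrl/LPS or IL-4 PT/LPS replicate (limma adjusted p = 0.0576 to 0.176) and with a floor 4 times as high (0.0637). The Il1b promoter scored 17.1 and 18.1 in ctrl/ctrl and 79.7 and 83.9 in ctrl/LPS.

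Of 27 immediate early genes, whose transcription is induced by a stimulus without new protein synthesis, 21 had a nearest shared region (77.8%, beside 20.8% over all genes). They had 40 regions, with the strict motif in 42.5%. RNAPII-pS5 rose at 6 and fell at 4 of 34 under LPS, next to 13.4% and 16% of all p65 regions tested. Between IL-4 PT/LPS and ctrl/LPS it rose at 0 and fell at 4, next to 9.79% and 6.4%. RNAPII-pS2 fell at 5 and rose at 0 of 37 in that comparison, next to 7.12% and 11.6%. Near Fos RNAPII-pS5 was 33.5 and 45.2 in ctrl/LPS and 16.1 and 22.4 in IL-4 PT/LPS (−1.23, SE 0.27, limma adjusted p = 0.0318), and near Klf2 RNAPII-pS2 was 68.0 and 77.3 against 40.3 and 33.6 (−0.92, SE 0.16, limma adjusted p = 0.0117). Near Junb RNAPII-pS5 rose under LPS from 31.3 and 12.0 to 67.4 and 63.3 (1.93, SE 0.43, limma adjusted p = 0.021). The call near Fos was lost without any 1 of the 8 libraries (limma adjusted p = 0.0552 to 0.139), without centring (0.0694) and with a floor 4 times as high (0.0615). That near Junb was lost without any 1 library other than the ctrl/ctrl pair (limma adjusted p = 0.0583 to 0.113) and with the higher floor (0.0514). That near Klf2 was lost without ctrl/LPS replicate 2 or IL-4 PT/LPS replicate 2 (limma adjusted p = 0.0573 and 0.0647).

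Of 26 Toll-like receptor and inflammasome genes nearest to a p65 region, 14 had a shared one (53.8%, beside 20.8% over all genes), with 23 regions. RNAPII-pS5 rose at 3 and fell at 2 of 19 under LPS, next to 13.4% and 16% of all p65 regions tested. At the promoter of Nlrp3, the inflammasome sensor, it went from 14.1 and 18.4 to 39.9 and 31.5 (1.31, SE 0.29, limma adjusted p = 0.0198), a call lost without replicate 1 of ctrl/ctrl or ctrl/LPS or either IL-4 PT/LPS replicate (limma adjusted p = 0.0516 to 0.108). In p65, the promoter of Tlr2, the receptor for bacterial lipopeptides, scored 46.0 and 45.7 in ctrl/ctrl, 22.7 and 18 in IL-4 PT/ctrl, 47.8 and 48.1 in ctrl/LPS, and 41.6 and 53.7 in IL-4 PT/LPS, with the IL-4 PT/ctrl pair below all others. Over all p65 regions tested, H3K27Ac fell at 25.6% and rose at 21.2% after 1 hr of IL-4. H3K27Ac fell at 5 and rose at 1 of 13, among them the region 21398 bp upstream of Tlr2, from 180.5 and 172 to 103 and 97.9 (−0.76, SE 0.056, limma adjusted p = 0.00297, and 0.0506 without untreated replicate 1).

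IL-4 response genes had 12 shared regions near 8 of the 15 genes that were nearest to a p65 region (53.3%, beside 20.8% over all genes), and the strict NF-kB motif was in 8.33% of them. H3K27Ac rose after 1 hr of IL-4 at 8 and fell at 1 of 10, next to 21.2% and 25.6% of all p65 regions tested. At the region 2946 bp upstream of Arg1, the arginase of alternatively polarized macrophages, it went from 101 and 122 to 406 and 401 (log2 1.91, SE 0.11, limma adjusted p = 0.00178, and 0.0504 without 1 hr IL-4 replicate 1). p65 there scored 3.1 and 6.8 in ctrl/ctrl, 11.3 and 18.3 in IL-4 PT/ctrl, 6.06 and 4.21 in ctrl/LPS, and 24.3 and 25.5 in IL-4 PT/LPS, so that both IL-4 PT groups were above both groups without IL-4. At the region 90297 bp from Socs1, the cytokine signalling inhibitor, H3K27Ac went from 24.3 and 25.3 to 219 and 226 (3.22, SE 0.063, limma adjusted p = 0.000154), and p65 scored 17.2 and 26.4 in ctrl/LPS and 55.2 and 48.4 in IL-4 PT/LPS. Near Edn1, the endothelin gene, at 42684 bp, H3K27Ac rose by 0.99 (SE 0.049, limma adjusted p = 0.00124) and p65 was 49.9 and 48.0 in ctrl/LPS and 97.6 and 87.8 in IL-4 PT/LPS. Over the 12 regions the centred median p65 difference between IL-4 PT/LPS and ctrl/LPS was 0.75.

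Macrophage identity genes had 23 shared regions near 9 of 15 genes (60%, beside 20.8% over all genes), with the strict NF-kB motif in 13.0%. H3K27Ac rose at 4 and fell at 5 of 15, next to 21.2% and 25.6% of all p65 regions tested. At a region 14610 bp from Tfec, a microphthalmia family factor, it went from 37.5 and 35.3 to 191 and 161 (2.32, SE 0.11, limma adjusted p = 0.00119), and p300 from 21.6 and 81.8 to 217 and 222 (1.71, SE 0.16, limma adjusted p = 0.00803, 0.145 without centring, and 0.202 or 0.196 without 1 hr IL-4 replicate 1 or 2). Near Maf, at 212345 bp, H3K27Ac fell from 107 and 109 to 43.7 and 45.8 (−1.22, SE 0.064, limma adjusted p = 0.0014).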

How the data were processed

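ChIP-seq of 9 antibodies in 56 BMDM samples was analysed from annotated peak lists, 1 per sample and 2 replicates per group. Reads were aligned to mm10 with BWA 0.7.10 and handled with SAMtools 0.1.19, and peaks were called with MACS2 2.0.10 or HOMER 4.2 and annotated with HOMER, per the submitters' processing notes. Scores deposited by the authors for 8 antibodies are −log10 values of the peak caller's p- or q-value, and the files do not say which. For H3K27Ac the deposited score is a HOMER signal of normalized tags per peak of 1000 bp. No reads or totals came with the lists, so depth is unknown and no interval was formed.

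p65 peaks overlapping by 1 bp or more were merged. A region's score was the highest of the overlapping peaks. log2 scores were centred per sample on the regions with a peak in every sample of the antibody, and a missing peak was set to the antibody's lowest score. limma 3.58.1 (R 4.3.3, trended empirical Bayes) was fitted over all p65 regions with a peak in at least 2 samples, and Benjamini-Hochberg adjusted p of at most 0.05 was called. Other steps ran in Python 3.11.15 (pandas 2.3.3, NumPy 2.4.6, matplotlib 3.10.9, SciPy 1.17.1), and the fits were tested on simulated data. There, the share of changes of 2 log2 units that was called ran from 13% for p300 to 78% for H3K27Ac. For changes of 4 log2 units it ran from 56% for p300 to 95% for H3K27Ac. The replicates are described as biological in the study's methods. With 2 against 2 samples an exact permutation test cannot go below p = 0.333, so single values have no test of their own. HDACs and RNAPII-pS2 of the 1 hr experiment were described by presence. Same-numbered replicates did not deviate together (r from −0.0476 to 0.0554), so the numbers were not taken as pairs.

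Named regions were the 10 with the highest mean log2 p65 score, the 5 with the largest p65 difference each way under LPS and between IL-4 PT/LPS and ctrl/LPS, the 5 largest RNAPII calls each way per contrast, the 3 largest calls each way in the 1 hr experiment, those nearest to listed genes, and those just inside or outside the rule, and some that the rule names are not reported here. The members, gene lists and rules were chosen with earlier results of these data known. Motifs were searched in 200 bases on both strands, and promoters are those of RefSeq (GRCm38.p6). Alternatives were other scalings, floors, windows and overlaps, and leaving out each replicate. Peaks within 1000 bp and the 200-base windows at the centre were added after seeing the data.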

Additional observations from a re-analysis of the deposited data

Results flagged for a closer look

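The LPS response of RNAPII-pS5 differed with IL-4 pretreatment at 336 shared regions by the limma interaction term (adjusted p of at most 0.05), larger after IL-4 PT at 162 (4.84%) and smaller at 174 (5.20%), next to 8.54% and 7.76% of all p65 regions. For RNAPII-pS2 this held at 368 regions, 221 larger (6.00%) and 147 smaller (3.99%), next to 9.99% and 7.94%. The shares at the shared regions were thus below the background in both directions. Among shared regions with a peak in every sample the counts were 19 and 77 for RNAPII-pS5 and 63 and 80 for RNAPII-pS2. The balance for RNAPII-pS5 was thus different there, but all p65 regions with a peak in every sample were not counted. Near Bach1, a heme-regulated repressor gene, RNAPII-pS5 had no peak in ctrl/ctrl, 14.1 and 12.3 in IL-4 PT/ctrl, 31.9 and 30.6 in ctrl/LPS, and 10.1 and 16.8 in IL-4 PT/LPS (limma adjusted p = 0.00501). A peak was thus seen only with LPS in cells without pretreatment, while after pretreatment the values without and with LPS overlapped. Upstream of Arg1 it scored 13.5 and 11.5 in ctrl/ctrl, had no peak in IL-4 PT/ctrl, scored 3.84 with no peak in replicate 2 in ctrl/LPS, and 6.7 and 6.83 in IL-4 PT/LPS (limma adjusted p = 0.0138). Near Vav3 RNAPII-pS2 scored 15.1 and 21.2, 17.3 and 14.2, 55.04 and 46.9, and 4.12 with no peak in replicate 2 in the same order of groups (limma adjusted p = 0.0132). The calls near Ly6e and at the Gadd45b promoter changed when peaks within 1000 bp were taken, as given above.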

How the results depend on the processing

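With only regions that had a peak in every sample, the calls numbered 349 (ctrl/LPS), 141 (IL-4 PT/ctrl), 295 (LPS after IL-4 PT) and 64 (interaction) for RNAPII-pS5, 630 (LPS after IL-4 PT) and 119 (interaction) for RNAPII-pS2, and 67, 43 and 667 for RNAPII-pS5, PU.1 and p300 after 1 hr of IL-4. With a floor 4 times as high, RNAPII-pS5 had 203 (IL-4 PT/ctrl), 446 (LPS after IL-4 PT), 324 (IL-4 PT/LPS against ctrl/LPS) and 170 (interaction), and the RNAPII-pS2 interaction 233. At an unadjusted p of at most 0.05 the counts were 769, 1202, 1012 and 763 for RNAPII-pS5 in the same order, 1289 (IL-4 PT/ctrl), 914 (IL-4 PT/LPS against ctrl/LPS) and 826 (interaction) for RNAPII-pS2, and 605, 292 and 937 for RNAPII-pS5, PU.1 and p300 after 1 hr of IL-4. Without centring p300 had 27 calls. The replicate block gave 1 call for RNAPII-pS5 and 26 for PU.1 after 1 hr of IL-4, and 249 and 274 for the RNAPII-pS5 and RNAPII-pS2 interactions; same-numbered samples did not pair. Keeping only the upper 50% of peaks left 1950 shared regions.

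Leaving out 1 replicate gave 692 to 1034 calls for RNAPII-pS2 under LPS (lowest without ctrl/LPS replicate 1, then 713 without replicate 2), 476 to 600 with IL-4 PT (496 and 476 without ctrl/ctrl replicates 1 and 2) and 724 to 975 for LPS after IL-4 PT (lowest without IL-4 PT/LPS replicate 1). In the 1 hr experiment it gave 0 to 101 for RNAPII-pS5 (101 and 99 without untreated replicates 1 and 2), 682 to 792 for H3K27Ac (each of the 4 libraries lowered it, to 682, 691, 774 and 792), 0 to 1583 for p300 and 0 to 0 for PU.1. Without 1 replicate, p65 differences without overlap in the IL-4 PT/ctrl comparison numbered 2933 to 3028, and the shared regions 3992 to 4433. Leaving out a sample can only keep or raise the first number, and the second then asks for a peak in fewer samples. Of the 57 region calls followed singly, none changed direction, 560 of the repeats kept the call and 92 lost it. Apart from the p65 counts without 1 replicate, and except where peaks within 1000 bp are given above, the cause of these shifts was not tested. No read depth is known, so weak peaks absent from the samples with fewest peaks limit which regions count as shared.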
